A study of Homo sapiens with 5 samples.

Results

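H3K27ac peaks that flanked promoters were taken as those with a centre more than 1 kb and at most 5 kb from the nearest transcription start site (TSS) of a protein-coding transcript in GENCODE release 44, on chromosomes 1 to 22 and X. There were 1521 such peaks among 20036 on those chromosomes (7.59%), against 10846 peaks within 1 kb of a TSS and 7669 more than 5 kb away. By the strand of the gene, 743 flanking peaks lay upstream of their TSS and 778 downstream. They belonged to 1418 TSSs of 1299 genes. A single flanking peak was found at 1119 of these genes, 180 genes had 2 or more, and 114 genes had flanking peaks on both sides. The centre of 1 peak was equally far from the TSSs of different genes and was given to the first by name.

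H3K27ac was measured by ChIP-seq in a derivative of HCT116, a human colorectal carcinoma cell line, that expresses the plant auxin receptor osTIR1 from a CMV promoter and carries a degron tag (mAC) on the cohesin subunit RAD21. All groups shared these modifications and 0.1% DMSO for 6 h, and no label gives auxin. The 2 IFN-β libraries were from cells given 1000 unit/ml IFN-β for 1 h, and the 2 mock libraries from cells not treated further. Peak calling used 1 input library, and the paper states that input coverage was also controlled for when the peaks were merged. The paper does not state whether the signal values were adjusted for input. The labels place IFN-β at 60 min and mock at 0 min, so treatment cannot be told apart from 1 h more in culture. Each ChIP used 500000 cells fixed in 1% formaldehyde for 10 min, and the H3K27ac libraries held 5.5 M to 8.6 M reads. The deposited table gives, for each peak, the log2 of the authors' mean normalised read count in each group, called signal here. The authors' own comparison of the groups is also in the table and was not used. The table has no value for a single library, so replicate error is not known, and no difference below was tested against it. Nothing in the labels says whether the 2 libraries came from separate cultures.

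Acetylation of lysine 27 on histone H3 marks nucleosomes beside active promoters and enhancers, and is placed by the acetyltransferases p300 and CBP. At an active promoter the mark spreads over the nucleosomes on either side of the start site, while separate acetylated peaks in the flank or the first intron are often enhancers or alternative promoters. IFN-β binds the type I interferon receptor, and the transcription factor complex it activates binds interferon-stimulated response elements (ISREs) at the promoters of antiviral genes.

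The labelled cell type was checked against its markers. Of 10 colorectal epithelial markers, 8 had a peak within 5 kb of a TSS, with 20 peaks and a median mock signal of 5.645, and none was found for KRT18 or VIL1. Of 10 markers of blood, stromal, endothelial and liver cells, 1 had a peak, COL1A1 with a mock signal of 5.24. Over all 20036 peaks the median signal was 5.04 in mock and 4.39 in IFN-β, and the median difference was -0.69. A difference is always IFN-β minus mock on the log2 scale, and most peaks of every kind had a negative one, so each value below is to be read against this common shift. From group means, a general loss of H3K27ac and a difference in scaling between the groups cannot be told apart, and "lower" below means only a lower normalised group mean.

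The sequences at the centres of 6 flanking peaks show how unlike these regions were. They are the peaks with the highest mock signal on each side (KAZALD1 and TCF7L2), a pair with higher signal after IFN-β (RICTOR and RBMS2) and a pair from the lowest differences at or above the median level of all peaks (LFNG and APC2). Each is 200 bases of the GRCh38 plus strand, with CG dinucleotides in capitals, from chr10:101060874-101061073, chr10:112952335-112952534, chr5:39075768-39075967, chr12:56526433-56526632, chr7:2523625-2523824 and chr19:1444289-1444488. The KAZALD1 and TCF7L2 stretches held 18 and 20 CG dinucleotides, and LFNG held 10. RICTOR, RBMS2 and APC2 held 2 each.
KAZALD1: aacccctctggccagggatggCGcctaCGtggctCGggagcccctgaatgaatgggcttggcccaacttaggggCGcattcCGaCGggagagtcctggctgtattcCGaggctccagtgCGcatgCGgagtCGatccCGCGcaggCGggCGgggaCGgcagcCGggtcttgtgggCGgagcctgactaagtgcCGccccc
TCF7L2: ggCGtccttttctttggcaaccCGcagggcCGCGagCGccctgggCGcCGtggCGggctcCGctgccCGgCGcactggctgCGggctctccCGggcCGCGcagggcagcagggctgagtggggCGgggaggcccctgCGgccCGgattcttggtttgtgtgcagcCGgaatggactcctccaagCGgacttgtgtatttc
RICTOR: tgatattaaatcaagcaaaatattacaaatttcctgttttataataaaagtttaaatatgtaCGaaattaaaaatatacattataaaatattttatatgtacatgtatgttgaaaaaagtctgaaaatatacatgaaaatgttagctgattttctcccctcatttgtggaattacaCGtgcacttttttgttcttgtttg
RBMS2: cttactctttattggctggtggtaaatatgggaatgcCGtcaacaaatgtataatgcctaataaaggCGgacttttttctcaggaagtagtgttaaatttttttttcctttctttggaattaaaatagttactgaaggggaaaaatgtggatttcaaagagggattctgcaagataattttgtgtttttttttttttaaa
LFNG: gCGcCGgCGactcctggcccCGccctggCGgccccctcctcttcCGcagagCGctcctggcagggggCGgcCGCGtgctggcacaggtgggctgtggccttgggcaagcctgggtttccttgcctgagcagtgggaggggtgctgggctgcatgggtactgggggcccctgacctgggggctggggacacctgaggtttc
APC2: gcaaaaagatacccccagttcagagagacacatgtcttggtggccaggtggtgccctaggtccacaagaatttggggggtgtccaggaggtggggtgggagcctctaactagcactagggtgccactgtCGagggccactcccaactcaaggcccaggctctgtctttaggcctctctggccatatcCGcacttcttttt

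Flanking peaks carried less H3K27ac than peaks at the TSS and about as much as distal ones. Their median mock signal was 4.24 (95% interval 4.15 to 4.33, n = 1521 peaks), or 18.9 normalised reads. It was 5.545 (46.7 reads) for peaks within 1 kb of a TSS and 4.35 (20.4 reads) for peaks over 5 kb away. In IFN-β the medians were 3.68, 4.80 and 3.80 in the same order. Intervals here cover counting over peaks only, and peaks are not replicates. The range was wide, with 10% of flanking peaks under a mock signal of 3.12 and 10% over 6.11. The median level of all peaks, taken as the authors' mean over both groups, was 4.755, and 438 flanking peaks (28.8%) reached it against 66.5% of peaks at the TSS. Flanking peaks made up 5.41% of the summed mock reads and 5.62% of the summed IFN-β reads. The lowest value that any peak had, -0.17 in mock and -0.59 in IFN-β, was held in both groups by 19 flanking peaks, whose difference of -0.42 therefore came from these minima alone.

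**Figure D1:**
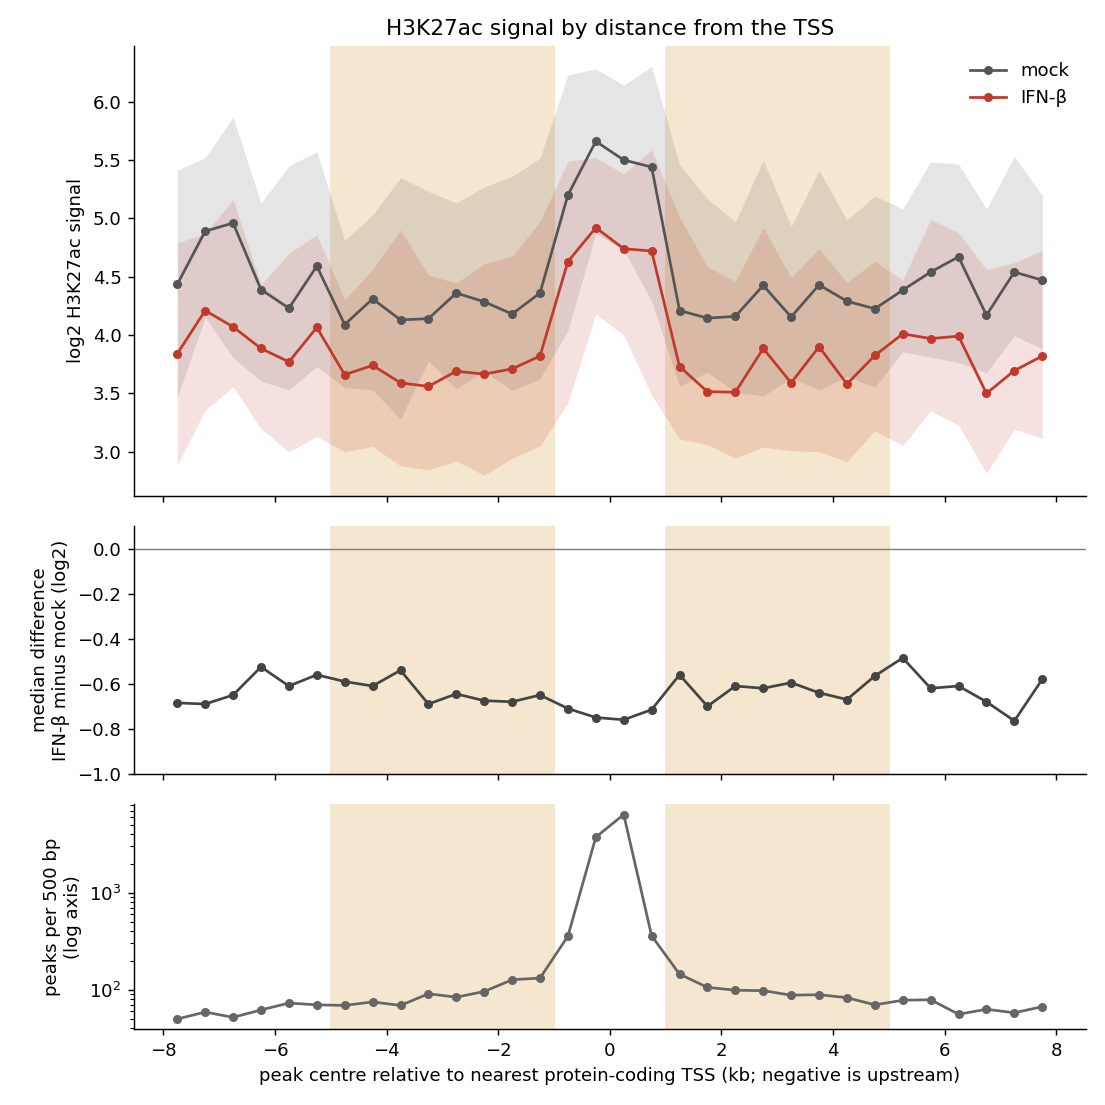
H3K27ac signal by distance of the peak centre from the nearest protein-coding TSS in 500-bp bins (shaded: 1 to 5 kb on either side); the top panel has medians with bands from the lower to the upper quartile, the middle panel the median difference and the bottom panel the number of peaks on a log axis. Signal was lower and flat across both shaded ranges, and IFN-β lay below mock in every bin.

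Signal was lower past the inner limit and then changed little with distance. The median mock signal was 5.18 from 900 to 1000 bp (interval 4.55 to 5.72, n = 78). From 1000 to 1100 bp it was 4.46 (3.96 to 5.11, n = 60), so the intervals overlapped. In bins of 500 bp it went across this limit from 5.20 to 4.36 upstream and from 5.44 to 4.21 downstream. At the outer limit the medians were 3.92 from 4900 to 5000 bp (n = 30) and 4.425 from 5000 to 5100 bp (n = 28). In between, the median for each 1 kb of distance stayed from 4.135 to 4.31 upstream and from 4.17 to 4.29 downstream. The number of upstream peaks fell off from 259 between 1 and 2 kb to 144 between 4 and 5 kb, and of downstream peaks from 251 to 153. Spearman's rho between distance and mock signal across the 1521 peaks was -0.034. Both sides were alike in level, with a median mock signal of 4.24 upstream and 4.245 downstream. At 33 TSSs with flanking peaks on both sides, the mean upstream mock signal was higher in 13, and the median gap between sides in either direction was 1.30.

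Most flanking peaks lay inside genes. The centre was in an intron of a protein-coding gene for 879 peaks (57.8%), in a UTR exon for 75, in a coding exon for 70, in another exon for 54, within only a gene of another type for 106, and outside any annotated gene for 337 (22.2%). The gene of the nearest TSS held 969 of the centres, 709 downstream of the TSS and 260 upstream of it, where a second start lay further out. A start of a non-coding transcript or of a gene of another type lay within 1 kb of 353 flanking peaks (23.2%), among them 135 beside a lncRNA start. Median mock signal was 4.565 in coding exons (interval 4.09 to 5.19, n = 70) and 4.50 in UTR exons (4.12 to 4.93, n = 75). In introns it was 4.19 (4.10 to 4.29), and the intervals overlapped. GC content differed more clearly, at a median of 65.7% in coding exons against 50.9% in introns.

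In composition the flanking peaks stood between both other kinds. Median GC content within 500 bp of the centre was 52.4%, against 64.4% at the TSS and 46.6% in distal peaks. The ratio of observed to expected CpG was 0.306, close to the 0.268 of distal peaks and far from the 0.787 at the TSS. Downstream of the TSS the median GC content was 57.7% from 1 to 2 kb and 52.3% from 2 to 3 kb, while upstream it was 52.2% and 51.2%.

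After IFN-β the flanking peaks had a lower group mean by a median of -0.63 (95% interval -0.66 to -0.61), a little less far below mock than all peaks. The median was -0.76 for peaks at the TSS and -0.56 for distal peaks, and on the flanks it was -0.64 upstream and -0.63 downstream. Centred on the median of all peaks, the flanking median was 0.06. From bin to bin of 1 kb it stayed from -0.66 to -0.60. Spearman's rho across members was 0.9071 between mock and IFN-β signal, where both values share the peak, and 0.018 between distance and difference.

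**Figure D2:**
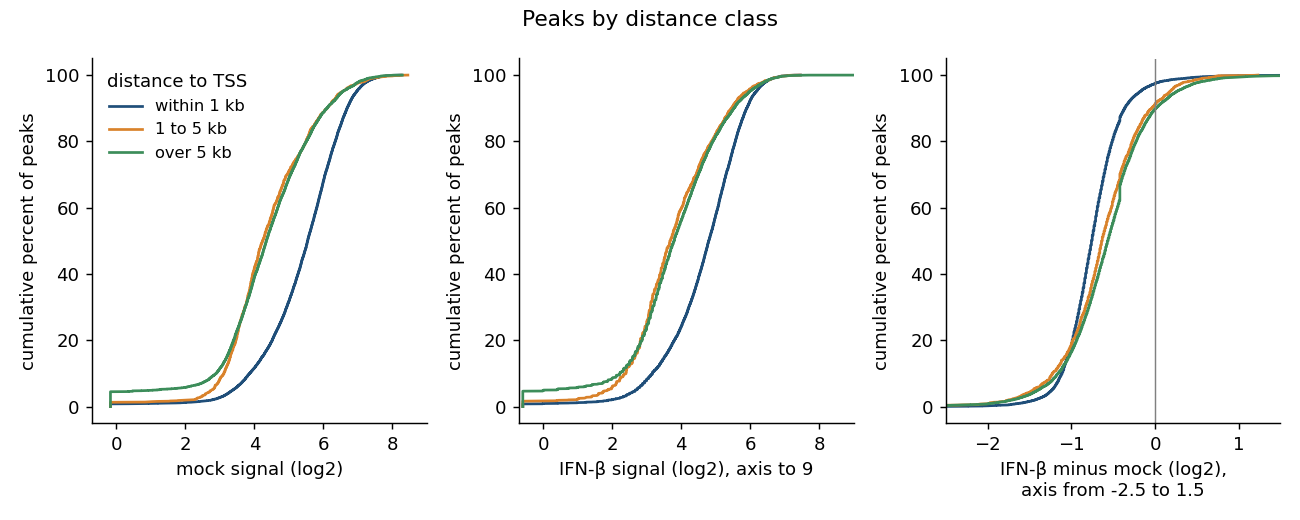
Cumulative percent of peaks (vertical) by mock signal, IFN-β signal and their log2 difference (horizontal) for peaks within 1 kb of a TSS, 1 to 5 kb away and over 5 kb away. The flanking curve ran near the distal one in level and between both others in the difference.

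A difference above 0 was found for 132 flanking peaks (8.68%, Wilson interval 7.37 to 10.2), against 5.92% of all peaks, 2.52% at the TSS and 10.2% of distal peaks. Among the 438 flanking peaks at or above the median level it was 14 (3.20%), against 1.58% of all peaks at that level. A difference at least 1 above the median of all peaks was found for 41 flanking peaks (2.70%), beside a background of 2.50%, and the interval from 1.99 to 3.64 held that background. Of these 41 peaks, 37 were below the median level. A difference at least 1 below the median was found for 37 (2.43%, interval 1.77 to 3.33), beside a background of 1.43%. The share was 0.784% at the TSS and 2.14% in distal peaks, which lay inside the flanking interval. All 37 were below the median level, and the group values behind them were small. The peak 3439 bp downstream of the TSS of H2BC12, a histone H2B gene, went from 8.11 normalised reads in mock to the lowest value of the table, 0.664, in IFN-β. The peak 2574 bp downstream of CDC25B, a cell cycle phosphatase, went from 9.51 to 1.32. Both peaks were chosen after their values were seen.

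The difference moved with base composition and changed little with level. All 20036 peaks were cut into 5 equal parts by level, and the flanking median was -0.63 in the lowest part (n = 522), -0.58, -0.61 and -0.63 in the next 3, and -0.725 in the highest (n = 162). In the upper 4 parts it was above that of peaks at the TSS (-0.70, -0.73, -0.75 and -0.80), with intervals that did not overlap, and in the lowest part it was -0.63 beside -0.62. Cut by GC content instead, the flanking median went from -0.49 in the part poorest in GC (n = 396) through -0.62, -0.66 and -0.73 to -0.795 in the richest (n = 102). Within these parts flanking peaks lay close to the others, for example -0.49 beside -0.53 at the TSS and -0.48 in distal peaks in the poorest, and -0.795 beside -0.815 and -0.765 in the richest. Across the 1521 flanking peaks Spearman's rho with the difference was -0.235 for GC content and -0.011 for level. The part of base composition in the difference between the flank and the TSS was not tested.

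**Figure D3:**
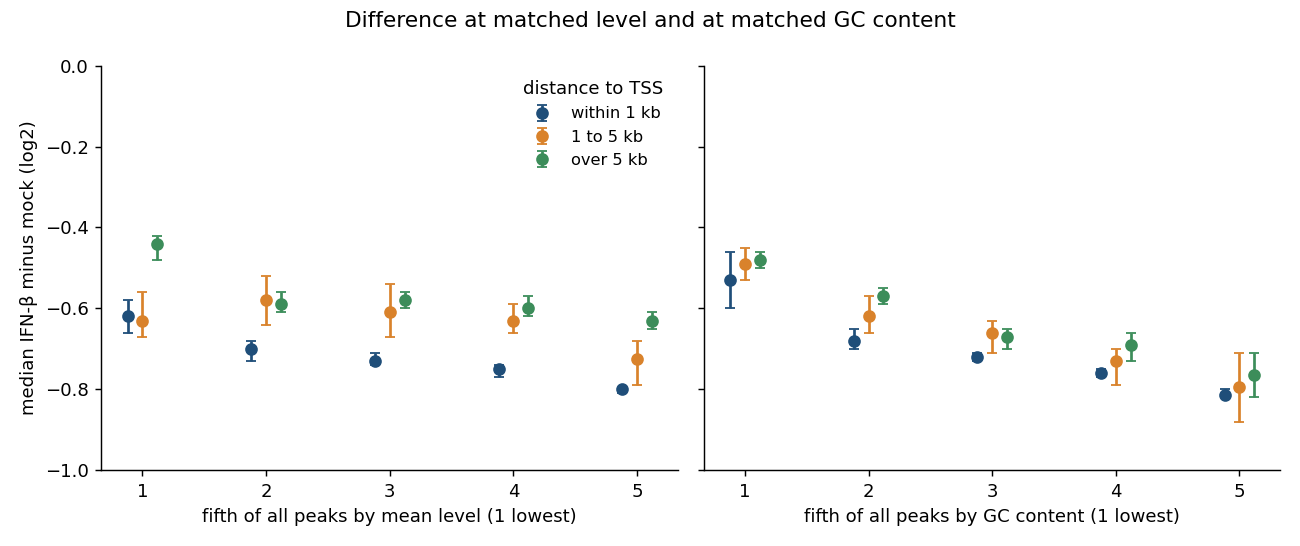
Median log2 difference (IFN-β minus mock) with 95% intervals over peaks, in 5 equal parts of all peaks by mean level (left) and by GC content (right), for the distance classes. By level the flanking points lay above those at the TSS in the upper 4 parts, and by GC content all classes went down together.

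A promoter partner, a peak within 1 kb of the same TSS, was present for 738 flanking peaks (48.5%, interval 46.0 to 51.0), for 49.5% of those upstream and 47.6% of those downstream. These 738 shared 673 partners, 59 of which had 2 or more flanking peaks. Pairing was least frequent close to the TSS, at 43.2% upstream and 37.5% downstream between 1 and 2 kb, and was 51.4% and 54.9% between 4 and 5 kb. When the nearest edge had to lie over 1 kb away, 51.7% were paired. How far peak width limits pairing close to the TSS was not tested. The stretch between the edges of paired peaks had a median of 1843 bp, and it was under 500 bp for 76 pairs (10.3%).

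Paired flanking peaks were mostly the weaker member of the pair. In mock the flanking signal minus that of its partner had a median of -1.42 (interval -1.56 to -1.27, n = 738), and the medians of the 2 kinds were 4.10 and 5.735. The flanking peak was the higher one in 146 pairs (19.8%) in mock, in 157 in IFN-β, and in 128 in both. The signals of the pair were hardly related (Pearson's r 0.134 and Spearman's rho 0.029 across 738 pairs, which share libraries and in part the partner). In the difference the flanking peak was above its partner by a median of 0.08 (interval 0.04 to 0.12), and in 425 pairs (57.6%) its difference was the higher of the 2. Spearman's rho of the differences was 0.175. A difference above 0 was found for 74 paired flanking peaks, and the partner was also above 0 for 4 of them, beside 19 partners above 0 over all 738 pairs.

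**Figure D4:**
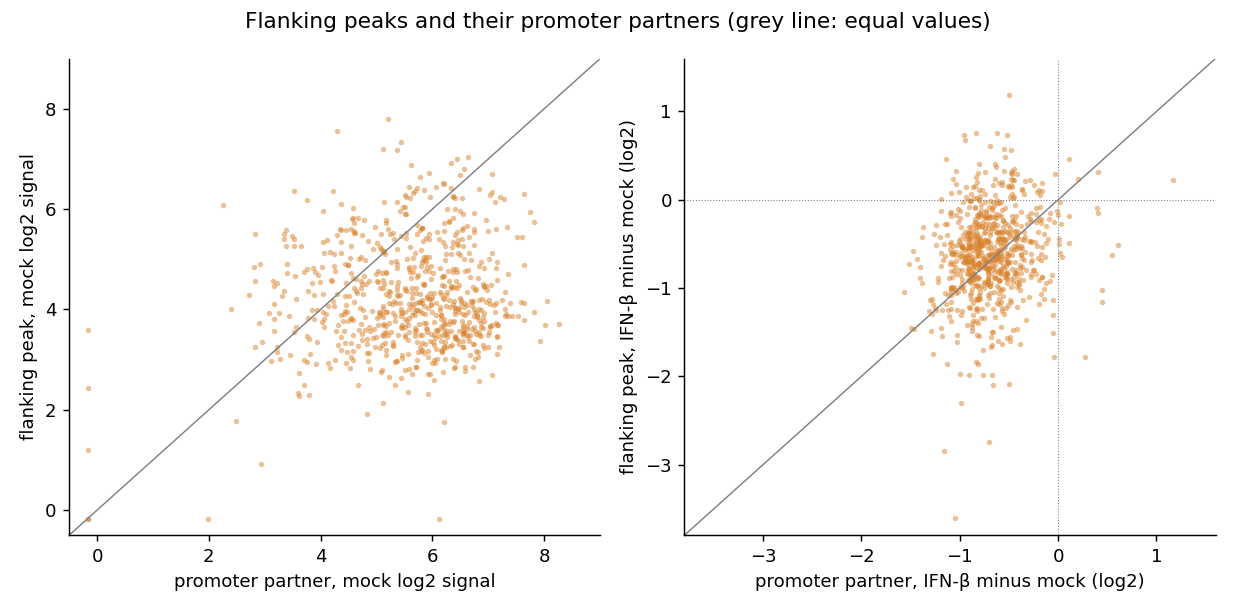
Mock log2 signal (left) and log2 difference (right) of 738 flanking peaks (vertical) against their promoter partners (horizontal), with a grey line at equal values and dotted lines at 0. Most points lay below the line in signal and formed a broad cloud around -0.7 in the difference.

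A pair from either end of this range is shown in sequence, as an example only. Among pairs with a summed signal at or above the median of pairs, the flanking peak exceeded its partner the most at SSTR5, a somatostatin receptor gene, where a peak 4310 bp downstream had a mock signal of 7.56 and the promoter peak 4.29. The reverse was largest at ACTG1 and, equally, TUBB4B. At ACTG1, the gene of cytoplasmic gamma actin, a peak 1828 bp upstream had 3.71 and the promoter 8.26. Sequences from the centres of the 4 SSTR5 and ACTG1 peaks are given from the GRCh38 plus strand with CG dinucleotides in capitals, from chr16:1083036-1083235, chr16:1078675-1078825, chr17:81516368-81516567 and chr17:81514449-81514546. The promoter stretches are shorter because bases annotated as UTR were left out. The SSTR5 flank held 15 CG dinucleotides in 200 bases and its promoter 8 in 151, while the ACTG1 flank held 0 in 200 and its promoter 9 in 98. Over the 5 pairs at each end, GC content within 500 bp of the flank centre overlapped. It was 35.5% to 71.6% where the flank was far the stronger and 42.9% to 66.7% where it was far the weaker.
SSTR5 flank: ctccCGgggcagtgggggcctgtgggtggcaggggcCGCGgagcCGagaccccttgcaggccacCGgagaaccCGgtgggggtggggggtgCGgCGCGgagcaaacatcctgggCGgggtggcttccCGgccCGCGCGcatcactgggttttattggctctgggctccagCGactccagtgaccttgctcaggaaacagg
SSTR5 promoter: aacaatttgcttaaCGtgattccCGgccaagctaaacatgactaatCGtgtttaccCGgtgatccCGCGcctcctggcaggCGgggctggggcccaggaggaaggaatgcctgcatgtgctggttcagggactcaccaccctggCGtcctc
ACTG1 flank: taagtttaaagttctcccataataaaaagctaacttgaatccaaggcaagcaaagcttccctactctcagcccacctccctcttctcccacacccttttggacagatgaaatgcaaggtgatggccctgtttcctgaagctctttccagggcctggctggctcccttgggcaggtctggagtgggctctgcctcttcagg
ACTG1 promoter: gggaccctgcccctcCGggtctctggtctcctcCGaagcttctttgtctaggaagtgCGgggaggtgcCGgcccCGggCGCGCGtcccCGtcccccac

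After IFN-β the SSTR5 flank was at 6.80 and its promoter at 2.89, so both were lower, the promoter by more. The ACTG1 flank was at 3.71 in both groups while its promoter went to 7.46. The other pairs in which the flank was far the stronger were at SNAPC2, a subunit of the complex that binds the promoters of small nuclear RNA genes (6.36 against 3.52 in mock), LRRC24 (7.80 against 5.21), DENND5B (6.19 against 3.75) and LFNG (6.35 against 4.22). The SNAPC2, LRRC24 and LFNG flanks lay within 1 kb of a non-coding transcript start, of TGFBR3L, LRRC14 and LFNG in turn. The SSTR5 and DENND5B flanks did not. The other pairs with a far stronger promoter were at TUBB4B, a beta tubulin (3.38 against 7.93), GPRC5A, an orphan receptor induced by retinoic acid (1.76 against 6.21), LENG9 (2.69 against 7.07) and SOCS6, of the suppressor of cytokine signalling family (3.68 against 8.02). Of these 8, only the GPRC5A flank had a positive difference, from 3.39 to 5.62 normalised reads.

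The 783 flanking peaks without a partner fell into 2 kinds. The gene had a promoter peak at another TSS for 408 of them and none for 375. A non-coding start lay within 1 kb of 223 unpaired peaks (28.5%) against 130 paired ones (17.6%). Unpaired peaks near such a start had a median mock signal of 4.84 (interval 4.55 to 5.20) and a GC content of 61.6%, those away from any annotated start 4.29 (4.13 to 4.45) and 52.4%, and paired peaks 4.10 (4.00 to 4.18) and 50.5%. Their median differences were -0.67, -0.635 and -0.61, and the intervals overlapped.

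The strongest flanking peaks lacked a partner, with 1 exception, and all had a lower IFN-β mean. Upstream, KAZALD1, a secreted protein with a Kazal-type domain, had 8.04 in mock and 7.15 in IFN-β. APOLD1, an early response gene of endothelial cells, had 8.0 and 6.82. BAHCC1, a chromatin protein, had 7.80 and 6.90, and a second peak of this gene, 1489 bp downstream, had 8.18 and 7.03. These 3 genes have CpG-rich peaks, with observed to expected ratios from 0.753 to 0.919. ABCC2, an efflux pump for organic anions, differed, with 7.76 and 7.10 at a CpG ratio of 0.150 and an AP-1 site. TNRC18, also a chromatin protein, had 7.70 and 6.71.

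Downstream, the highest flanking peak of all was in an intron of TCF7L2, the transcription factor that acts with beta-catenin in Wnt signalling, at chr10:112951935-112952935 in GRCh38, 1519 bp from the TSS. It had 8.45 in mock and 7.45 in IFN-β, or 350 and 175 normalised reads. ANP32B, a nuclear histone chaperone, had 8.18 and 7.07 at 1003 bp from the TSS, just outside the inner limit. LRRC24 had 7.80 and 6.64 and was the only one of these 10 with a partner. NSMCE2, a SUMO ligase of the SMC5/6 complex, had 7.65 and 6.57, an AP-1 site and a CpG ratio of 0.181. A non-coding start lay within 1 kb of KAZALD1, APOLD1, TNRC18, TCF7L2, ANP32B, LRRC24 and the downstream BAHCC1 peak.

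**Figure D5:**
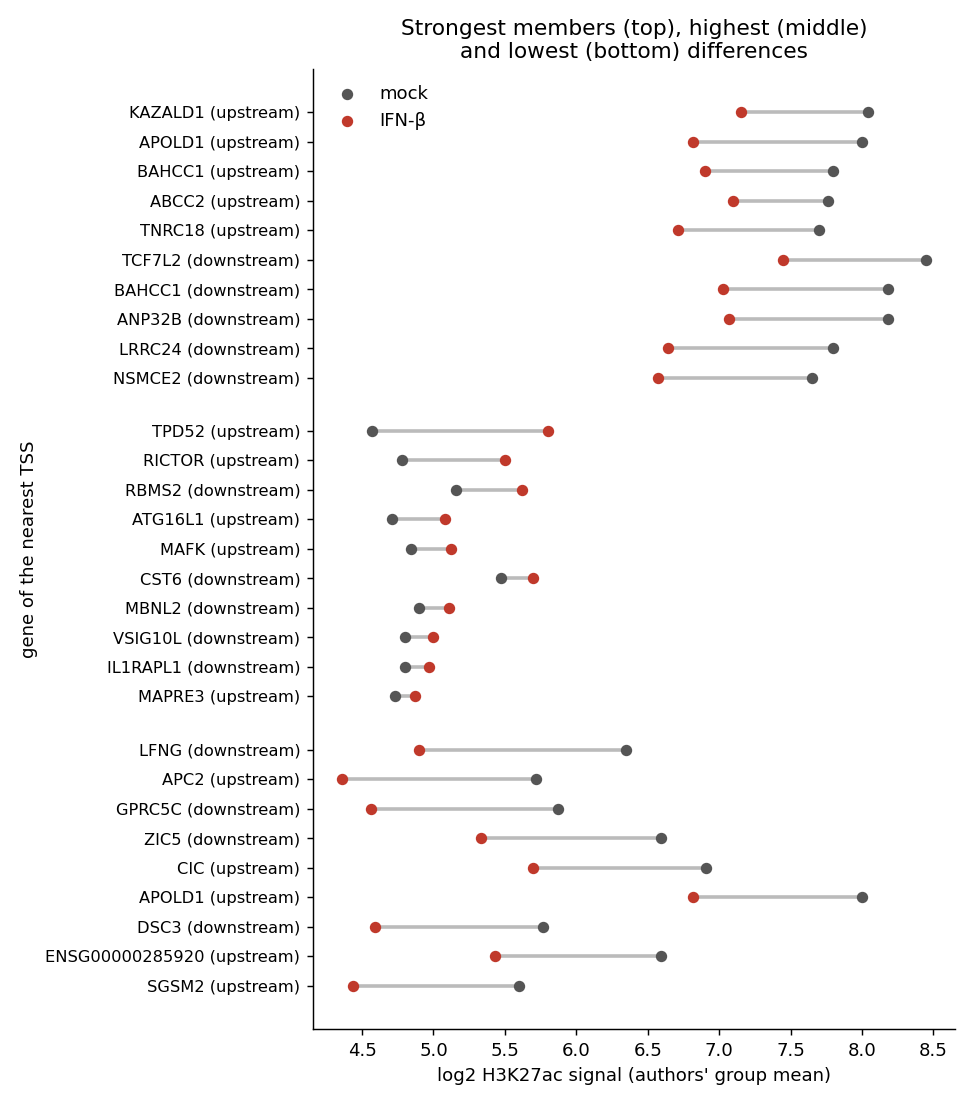
Signal in mock (grey) and IFN-β (red) of the 5 strongest flanking peaks on each side (top) and of the 10 with the highest (middle) and 9 of the 10 with the lowest (bottom) difference among those at or above the median level, by gene of the nearest TSS on the vertical axis and log2 signal on the horizontal axis. IFN-β lies right of mock in the middle block and left of it elsewhere.

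At or above the median level, 14 flanking peaks had a higher IFN-β mean, and the 10 highest are described. The peak 4315 bp upstream of TPD52, a gene of vesicle trafficking that is often amplified in carcinomas, had 4.57 in mock and 5.80 in IFN-β. It was the highest difference of all flanking peaks, 1.23, and the peak held 2 ISRE cores. An ISRE core is taken here as a direct repeat of the half-site GAAA with any 2 bases between, on either strand, within 500 bp of the centre. KAZALD1, the strongest upstream peak, also held 1 core, with a difference of -0.89. RICTOR, a subunit of the mTORC2 kinase complex, had 4.78 and 5.50 with no core. RBMS2, an RNA-binding protein, had 5.16 and 5.62 at the peak at chr12:56526033-56527033, 4534 bp downstream, with 1 core. Its promoter partner was at 5.12 and 5.23, so both peaks of this pair had a positive difference. RBMS2 had 2 more flanking peaks with the same partner, and both were lower in IFN-β, from 3.85 to 3.67 at 3349 bp upstream and from 4.42 to 3.93 at 2662 bp downstream. The RBMS2 core lies on the minus strand, and is shown in capitals within 60 bases of the GRCh38 plus strand at chr12:56526949-56527008.
RBMS2 core: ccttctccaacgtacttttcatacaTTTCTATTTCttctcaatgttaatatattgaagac

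The other 7 differences were smaller. ATG16L1, which directs lipidation of LC3 in autophagy, had 4.71 and 5.08, while its partner went from 4.99 to 4.36. CST6, a cysteine protease inhibitor, had 5.47 and 5.70, and its partner 5.44 and 5.64. MAFK, a small Maf transcription factor, had 4.84 and 5.12. The remaining 4 were at MBNL2, a splicing regulator (0.21), VSIG10L (0.20), IL1RAPL1 (0.17) and MAPRE3, a microtubule end-binding protein (0.14). Partners were present for 5 of these 10 peaks, and at MBNL2 and IL1RAPL1 the partner was lower after IFN-β (3.40 to 3.06 and 3.75 to 3.50), though by less than the median of all peaks.

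The lowest differences at this level ran from -1.45 to -1.16. LFNG, a glycosyltransferase that modifies Notch, had 6.35 in mock and 4.90 in IFN-β, or 81.6 and 29.9 reads, and its partner went from 4.22 to 2.72. APC2, a homologue of the tumour suppressor APC, had 5.72 and 4.36. The peaks of GPRC5C (5.87 and 4.56) and of ZIC5, a zinc finger transcription factor (6.59 and 5.33), followed. CIC, a repressor that acts below RAS and ERK, had 6.91 and 5.70, and its partner 6.34 and 5.43. APOLD1 came next with its difference of -1.18. DSC3, a desmosomal cadherin (5.77 and 4.59), an unnamed gene with the identifier ENSG00000285920 (6.59 and 5.43) and SGSM2 (5.60 and 4.44) made up the rest. GC content was from 49.0% to 67.6% in the 9 peaks named here and from 30.7% to 68.3% in the 10 with the highest differences, 7 of which were below 50%.

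Interferon-stimulated genes were nearly without flanking peaks. Of 83 listed genes, 62 (74.7%) had a peak within 1 kb of a TSS and 1 (1.20%) had a flanking one, against 51.1% and 6.62% of all 19618 protein-coding genes. The 69 promoter peaks of the list had a median difference of 0.26, and 47 were above 0, beside 2.52% of all peaks at the TSS. The only flanking peak was 3196 bp upstream of SHISA5, a membrane protein of the endoplasmic reticulum, at chr3:48507522-48508522. It had 5.00 in mock and 4.05 in IFN-β and no ISRE core, and its promoter partner had 4.68 and 3.97. No other flanking peak lay within 5 kb of a TSS of a listed gene when TSSs other than the nearest were counted.

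The genes of other pathways had more flanking peaks, and the lists were chosen with earlier results of these data known. Immediate early genes, which respond to growth factors and stress within minutes, had 12 flanking peaks at 9 of 32 genes, with a median difference of -0.365, and 10 of the 12 were above the median of all peaks, as were 853 of all 1521 flanking peaks (56.1%). The strongest were upstream of ZFP36, a protein that degrades AU-rich mRNAs (7.46 and 6.60), and of FOSL1, an AP-1 subunit (6.30 and 5.86), whose promoter went from 7.64 to 6.73. The peak 3640 bp upstream of ATF3, a stress-induced transcription factor, was nearly level at 4.69 and 4.65, while JUNB, another AP-1 subunit, had 4.19 and 3.17 at 4839 bp downstream. A higher IFN-β mean was found for 2 of the 12, beside 8.68% of all flanking peaks. They were the upstream peak of the nuclear receptor NR4A1 (1.92 and 2.21) and that of ZFP36L1 (3.71 and 3.94).

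Epithelial keratin and junction genes had 19 flanking peaks at 12 of 32 genes, with a median difference of -0.41, and 12 of the 19 were above the median of all peaks, a share near the 56.1% of all flanking peaks. The peak in the gene of KRT8, a keratin of simple epithelia, was the strongest at 6.66 and 6.50. CLDN4, a tight junction claudin, had 6.42 and 5.64. Around CDH1, the gene of E-cadherin, the peak 4915 bp upstream had 3.77 and 3.56, the peak 4491 bp downstream 4.89 and 3.94, and the promoter between them 4.48 and 3.76. The peak 4858 bp upstream of EPCAM, an epithelial adhesion molecule, had 4.42 and 4.44, although its promoter went from 5.70 to 4.84. The peak 1633 bp downstream of CLDN7 had 4.48 and 4.39, and its promoter 7.05 and 6.38.

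Feedback genes of the RAS and ERK pathway had 9 flanking peaks at 8 of 18 genes (median difference -0.73, with 4 of 9 above the median of all peaks, again beside 56.1% of all flanking peaks). DUSP6, a phosphatase that inactivates ERK, had 7.27 and 6.66, and SPRED2, an inhibitor of RAF activation, 6.67 and 5.94. Wnt target genes had 7 at 6 of 20 genes, with a median of -1.0 and 3 of the 7 above the median of all peaks. The negative feedback gene AXIN2 had -1.45 upstream (3.87 and 2.42) and -1.23 downstream (5.14 and 3.91). By contrast DKK1, a secreted Wnt antagonist, was nearly level at 6.48 and 6.43, in a peak 4316 bp downstream of the TSS. The DKK1 peak held 1 ISRE core and an AP-1 site, and both AXIN2 peaks also held an AP-1 site. None of these 16 had a difference above 0, beside 8.68% of all flanking peaks, a share at which 16 peaks decide little.

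The remaining lists had few flanking peaks in number, and their shares of genes are to be read against all protein-coding genes. A flanking peak was present at 15.4% of p53 target genes, 9.30% of cell cycle genes and 6.49% of ribosomal protein genes. It was 6.62% for all protein-coding genes. There were 5 at 4 of 26 p53 target genes (median difference -0.42), led by BBC3, which encodes the apoptosis activator PUMA (7.34 and 6.54), and CDKN1A, the cyclin-dependent kinase inhibitor p21 (5.46 and 5.04). Cell cycle genes had 4 at 4 of 43 genes (-0.74), among them CDC6, a replication licensing factor (4.34 and 3.73), and E2F2 (3.95 and 3.08). Ribosomal protein genes had 5 at 5 of 77 genes (-0.61), with RPL27A (6.09 and 5.44) and RPS16 (5.00 and 4.48) the strongest. A promoter peak was present at 95.3% of the cell cycle genes and 92.2% of the ribosomal protein genes.

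The genes with the most flanking peaks were CUEDC1, TJP3, KCNN4, PDE4B and SEPTIN9. CUEDC1 had 5, with mock signals from 4.28 to 5.82 and differences from -0.98 to -0.30. TJP3, the tight junction protein ZO-3, had 5, from 2.72 to 5.45, and the weakest was the only one with a higher IFN-β mean (2.72 and 3.18). KCNN4, a calcium-activated potassium channel, had 4, and the peak 4021 bp upstream (6.37 and 5.52) was above the promoter it shared a TSS with (5.85 and 5.33). PDE4B, a phosphodiesterase of cyclic AMP, had 4, all with differences from -0.69 to -0.45, and the strongest, 4554 bp downstream, had 6.03 and 5.53 beside a promoter at 4.57 and 4.58. SEPTIN9, a cytoskeletal GTPase, had 4 with differences from -1.30 to 0.52, and the positive one was at a low level (3.89 and 4.41).

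Flanking peaks held more AP-1 sites and fewer GC boxes than peaks at the TSS. A match is a description of the letters and not evidence of binding. An AP-1 site (TGACTCA or TGAGTCA) was present within 500 bp of the centre in 41.9% of flanking peaks, against 9.95% at the TSS, 49.1% in distal peaks and 27.3% of all peaks. Within pairs the shares were 42.0% of flanking peaks and 15.6% of their partners. A GC box (GGGCGG) was present in 50.9% on the flank, 92.1% at the TSS, 35.6% in distal peaks and 67.4% of all. An ETS site (CCGGAAGT) was present in 2.56% on the flank, 10.9% at the TSS and 6.98% of all, and a CRE (TGACGTCA) in 1.45%, 4.11% and 2.79%. A GATA site (AGATAA) was present in 30.4%, 16.9% and 27.5%, a TEAD site (GGAATG) in 46.0%, 32.6% and 38.7%, and an E-box (CACGTG) in 17.5%, 21.1% and 17.9%. In distal peaks the shares were 2.28% for an ETS site, 1.20% for a CRE, 41.9% for a GATA site, 45.9% for a TEAD site and 13.4% for an E-box. All motifs were searched on both strands. Across the 5 parts by level the AP-1 share on the flank stayed from 39.5% to 44.5%, but it went from 49.5% to 12.7% from the poorest to the richest in GC.

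An ISRE core was present in 193 flanking peaks (12.7%, interval 11.1 to 14.5), against 11.6% of all peaks, 8.62% at the TSS and 15.7% in distal peaks. The share was 14.7% upstream and 10.8% downstream, with intervals that overlapped (12.3 to 17.4 and 8.81 to 13.2). Flanking peaks with a core had a median difference of -0.48 (interval -0.56 to -0.42) and those without of -0.66 (-0.68 to -0.63). Their median GC content was 46.9% and 53.2%, and the part of GC content in that gap was not tested. A difference above 0 was found for 11.9% of flanking peaks with a core and 8.21% without. The gap in this share was not particular to this motif. The shares were 12.1% and 7.18% with and without a GATA site, and 10.2% and 7.42% for a TEAD site. For each of the other motifs the share was lower with a site than without. The median difference was -0.57 with a GATA site and -0.655 without, and -0.59 and -0.66 for a TEAD site. Both of these gaps in the median were smaller than that for the ISRE core. Among the 41 flanking peaks at least 1 above the median of all peaks, 11 held a core. Besides TPD52 and RBMS2 these included, chosen after their values were seen, FBXW8 (2.49 and 3.54), AGTRAP (2.35 and 3.11), HYAL1, a hyaluronidase gene (3.87 and 4.52), and VAMP5, a vesicle fusion protein (3.50 and 4.06). The promoter partner of the AGTRAP peak was lower after IFN-β, at 5.56 and 4.72. The FBXW8, AGTRAP, HYAL1 and VAMP5 peaks were all below the median level, with 5.10 to 14.6 normalised reads in mock. The share with a core among all peaks at least 1 above the median was not computed, so 11 of 41 has no background beside it.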

How the data were processed

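H3K27ac ChIP-seq was processed by the authors, and the submitters' processing notes name bcl2fastq 2.17, fastp 0.19.3, Bowtie2 2.25, SAMtools, MACS2, DiffBind and DESeq2 with GRCh38. The authors deposited one table of 20087 merged peaks, in which the log2 signal columns hold the log2 of the mean normalised read count, once for every H3K27ac library together and once for each group of 2. The mean column was within 0.0097 of the log2 mean of both groups. Another 3 columns hold the authors' fold change, p-value and FDR, and were not used.

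Peaks on other sequences (51) were left out. Chromosome names and lengths were compared with the GRCh38 reference. TSSs were the starts of protein-coding transcripts of protein-coding genes in GENCODE release 44. Differences are IFN-β minus mock of the group means, without a test. Intervals are 95% Wilson intervals for shares and order-statistic intervals for medians. Sequence features were read within 500 bp of the peak centre, and 14 of all windows, none of a flanking peak, held unknown bases. Distance, side, pairing, intervals and motif search were tested on simulated data. Python 3.11.15, numpy 2.4.6, pandas 2.3.3, scipy 1.17.1 and matplotlib 3.10.9 were used.

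Named peaks are the 5 with the highest mock signal on each side, the 10 with the highest and the 10 with the lowest difference at or above the median level, those at interferon-stimulated genes, those of the 5 genes with the most flanking peaks, the 5 pairs with the highest and the 5 with the lowest flanking minus promoter signal, and the 2 strongest in each other list. One peak under this rule is not reported here. Further members of the lists are named as examples, chosen after their values were seen. The peaks, lists and rules were chosen with earlier results of these data known. Alternatives changed the TSSs, the distance limits, the level and width of peaks, the scale, the pairing and the motif window.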

Additional observations from a re-analysis of the deposited data

How the results depend on the processing

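The table holds group means, so no library could be left out, no paired analysis was possible because the values carry no replicate, and no value has an error between libraries. With 2 libraries in each group and low counts in many flanking peaks, small differences cannot be resolved. Of 95 recomputed values, 68 stayed within the interval of the reported value (or within 1.5 times, for the count), 25 moved outside it and 2 changed sign. The median difference stayed negative except when centred on the median of all peaks (0.06, with 56.1% above 0), which removes the common shift. The median of flanking minus promoter mock signal was 0.13 among flanking peaks at or above the median level, which that choice favours by construction. In these 438 peaks the median mock signal was 5.78, 3.20% were above 0, 38.1% were paired and 10.7% held an ISRE core. With the 5 prime ends of genes as TSSs, 34.2% were upstream, the median mock signal was 4.83, the median difference -0.69, 6.74% were above 0, 44.8% were paired and the pair difference in mock was -1.26; the cause was not tested. An outer limit of 3 kb gave 887 peaks with 45.0% paired, and one of 10 kb gave 2684 with a median mock signal of 4.35. Measuring from the nearest edge gave 51.7% paired. With 5 reads added to both groups, the median mock signal was 4.58, the median difference -0.48, and the pair medians -1.17 in mock and 0.17 in the difference. The paired share was 75.3% with a partner at any TSS of the gene and 53.1% with a partner edge within 1 kb. An ISRE core within 250 bp was present in 6.51%. With all transcripts of protein-coding genes as TSSs, an alternative chosen after seeing the data, 40.1% were paired.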
